A study of Saccharomyces cerevisiae with 4 samples.

Results

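The genes described here encode the nuclear part of the mitochondrial respiratory chain and the ATP synthase of *Saccharomyces cerevisiae*. They were taken as a list of 41 genes, by membership in a complex and not by a measured value, and each was found through its systematic name among the 6256 gene probes of the array. The list holds 3 NADH dehydrogenases, 4 subunits of complex II (succinate dehydrogenase), 9 of complex III (the cytochrome *bc1* complex), the 2 isoforms of cytochrome *c*, 9 subunits of complex IV (cytochrome *c* oxidase) and 14 genes of complex V (the ATP synthase with its inhibitor). The mutant cells were *esl1Δ esl2Δ* double mutants, in which *ESL1* was replaced by *KAN* and *ESL2* by *NAT*, and they were set against the wild-type strain Y52. Both strains are *MATa* in the W303-1A background and share the markers *ade2-1*, *can1-100*, *trp1-1* and *ura3-1*, a *leu2* allele and *RAD5*. The RNA came from cultures in log phase in YPD with 2% glucose at 30°. Glucose left at harvest is not given for any culture. There were 3 biological replicates, each a mutant and a wild-type RNA bound to the same array in different dyes, and replicate 3 was repeated with the dyes exchanged. The sources used here list 1 double-mutant strain of this background and do not say whether the replicates came from separate clones.

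The respiratory chain carries electrons from NADH and succinate to oxygen and pumps protons, and the ATP synthase uses the proton gradient to make ATP. Budding yeast has no proton-pumping complex I, and single-chain NADH dehydrogenases on either face of the inner membrane take its place. In this yeast, high glucose represses most of these genes even in the presence of oxygen, and the Hap2/3/4/5 activator turns them on when glucose runs low. Every complex except complex II also holds subunits made from mitochondrial DNA.

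The targeted genes were low in every replicate. The log2 ratio of mutant over wild-type for *ESL1* was −4.77, −4.33 and −4.41 in replicates 1, 2 and 3, and for *ESL2* −3.65, −3.99 and −3.65. The median intensity of gene spots was 1660 to 5186 per channel over a local background of 22 to 49.5, and all 41 probes were well above background in both strains on all 4 arrays. With 3 replicates, their number limits the precision of the values that follow. The median log2 ratio over all 6254 genes tested was 0.0012, −0.0078 and 0.00097 in replicates 1, 2 and 3. Replicates 1 and 2 were alike across all genes (r = 0.681), whereas replicate 3 was less like either of them (r = 0.102 with replicate 1 and 0.214 with replicate 2).

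Transcripts of nearly all of these genes were somewhat more abundant in the *esl1Δ esl2Δ* mutant than in wild-type cells. The mean log2 ratio was above 0 for 40 of the 41 genes, against 3059 of all 6254 genes. The median of the 41 means was 0.47, which is 1.38-fold. Of the 41 genes, 36 were higher in all 3 replicates, where 18.7% of all genes were, and 0 were lower in all 3, where 18.5% of all genes were. The mean of each gene stayed below 2-fold: 0 of the 41 reached it, where 0.799% of all genes did in either direction. With so low a share among all genes, this count does not set the 41 apart. Their means ranked high all the same, and 35 of the 41 were above the 90th percentile of all genes. By limma with Benjamini-Hochberg adjustment over 6254 genes, 0 of the 41 had an adjusted p below 0.05, against 0.112% of all genes, and the lowest was 0.168. An unadjusted p below 0.05 was found for 30 of them, all higher in the mutant, where 7.9% of all genes were higher and 5.39% lower at that level. Thus no single gene of the list passed the adjusted test. What follows is a description that rests on how many of the genes lay on the same side of 0. All of the genes were read from the same 3 pairs of RNA. Their signs within a replicate are therefore not independent of each other, and the counts do not add replicates.

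**Figure D1:**
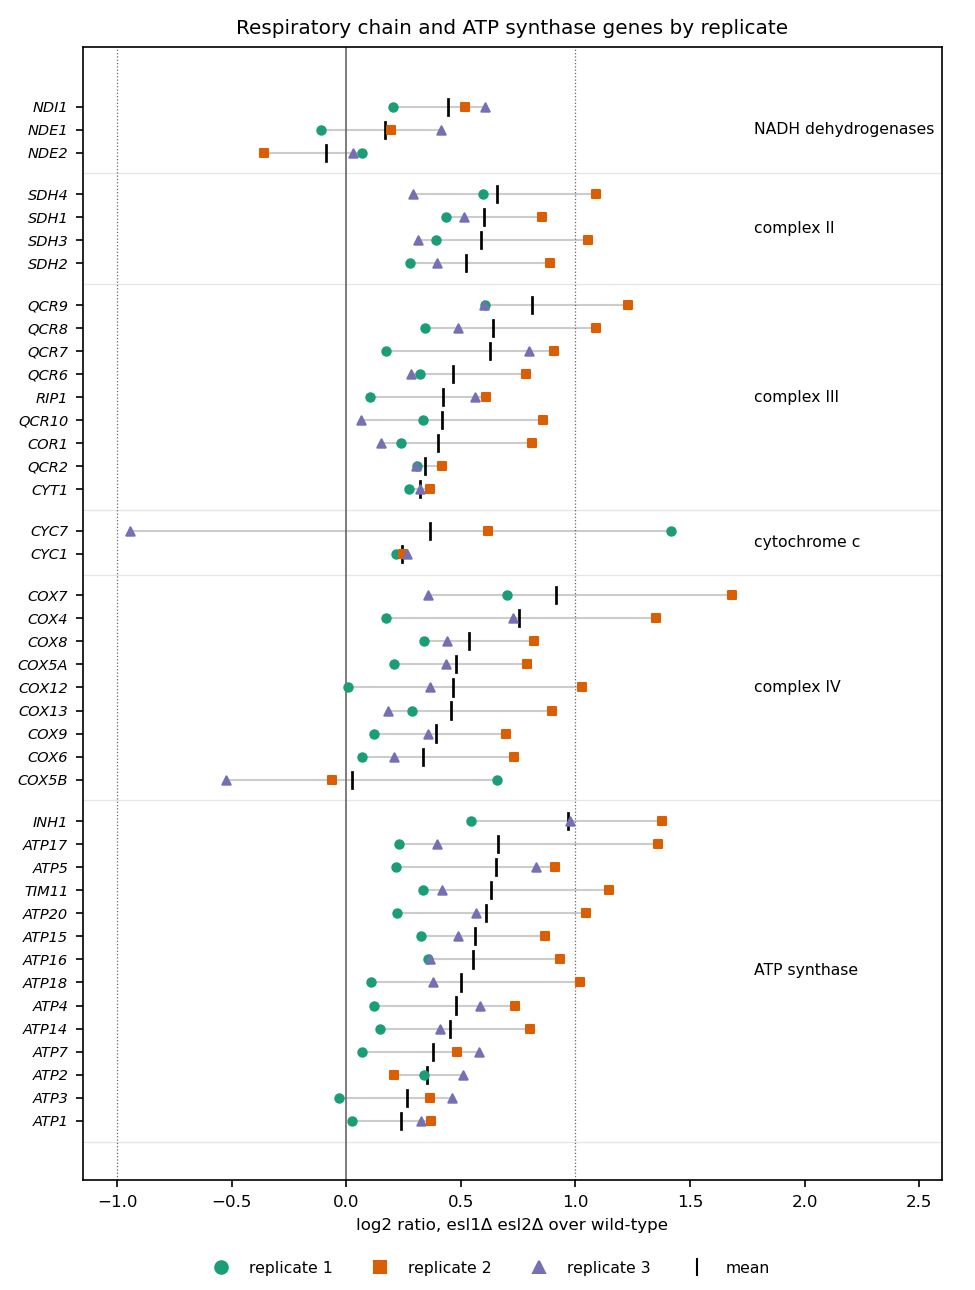
Log2 ratio of *esl1Δ esl2Δ* over wild-type (horizontal axis) for each of the 41 genes in replicates 1, 2 and 3, with the mean as a black bar, grouped by complex and sorted by mean. Dotted lines mark 2-fold. Most genes lie right of 0 in each replicate, and 5 genes (*NDE1*, *NDE2*, *CYC7*, *COX5B* and *ATP3*) have replicates on either side of it.

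The size of the shift depended on the replicate. The median log2 ratio of the 41 genes was 0.24 in replicate 1, 0.82 in replicate 2 and 0.40 in replicate 3. In each replicate 39 of the 41 were above 0, where 3141, 3070 and 3134 of all 6254 genes were in replicates 1, 2 and 3. Replicate 2 gave the highest ratio for 32 of the 41 genes, and replicate 1 the lowest for 28. Past 2-fold were 1 gene in replicate 1, 12 in replicate 2 and 0 in replicate 3, all of them higher, where 0.496%, 1.65% and 1.47% of all genes were past 2-fold and higher in replicates 1, 2 and 3. Without replicate 3, 6 of the 41 genes passed the adjusted limma test as higher, against 4.67% of all genes in that fit. These were *SDH1*, *SDH4*, *QCR9*, *CYC7*, *COX7* and *INH1*, with adjusted p-values of 0.0307 to 0.0423. With replicate 1 or replicate 2 left out, 0 passed.

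Complex II, the succinate dehydrogenase that ties the TCA cycle to the chain, was the most even of the complexes. *SDH1*, the flavoprotein subunit, had ratios of 0.44, 0.85 and 0.51 on the log2 scale in replicates 1, 2 and 3 and thus averaged 0.60 ± 0.22 (n = 3, SD; limma, adjusted p = 0.196). The membrane anchor gene *SDH4* had 0.59, 1.09 and 0.29, the highest mean of the complex at 0.66 ± 0.40. The iron-sulfur subunit gene *SDH2* had 0.28, 0.89 and 0.40, the lowest mean at 0.52 ± 0.32. All 4 genes were thus higher in all 3 replicates, and their means differed among each other with an SD of 0.056, while the SD of a single gene between replicates had a median of 0.36. The other anchor gene, *SDH3*, had a mean of 0.59 ± 0.41. The probes of the *SDH3* and *SDH4* paralogs went in opposite directions in each replicate: *SHH4* had log2 ratios of 0.22, 0.10 and 0.43, and *SHH3* of −0.12, −0.08 and −0.60.

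The genes of complex III, which passes electrons from ubiquinol to cytochrome *c*, were higher in all 3 replicates without exception (9 of 9). The small subunit gene *QCR9* was the highest, with log2 ratios of 0.60, 1.23 and 0.60, averaging 0.81 ± 0.36 (n = 3, SD; limma, adjusted p = 0.191). Its normalized intensity was 4050, 7211 and 6851 in *esl1Δ esl2Δ* cells, against 2665, 3072 and 4522 in wild-type cells. The other small subunits *QCR7* and *QCR8* followed with means of 0.63 ± 0.40 and 0.64 ± 0.40. Lowest in the complex was *CYT1*, which encodes the heme protein cytochrome *c1*, with log2 ratios of 0.27, 0.37 and 0.32, averaging 0.32 ± 0.05. Its ratio varied little between replicates, as did that of the core protein gene *QCR2* (0.31, 0.42 and 0.30). *COR1*, the other core protein gene, varied more (0.24, 0.81 and 0.15), and *RIP1*, the Rieske iron-sulfur protein gene, was at 0.10, 0.61 and 0.56. The remaining small subunits *QCR6* and *QCR10* had means of 0.46 ± 0.28 and 0.42 ± 0.40.

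Among the subunits of complex IV, which hands the electrons to oxygen, 8 of 9 were higher in all 3 replicates. *COX7* was the highest, with log2 ratios of 0.70, 1.68 and 0.36, averaging 0.91 ± 0.69 (n = 3, SD; limma, adjusted p = 0.279). In replicate 2 the intensity of its probe was 24036 in *esl1Δ esl2Δ* cells and 7478 in wild-type cells, which gave the highest single ratio among the 41 genes. *COX4* was next with 0.17, 1.35 and 0.73, averaging 0.75 ± 0.59. *COX8*, *COX12*, *COX13*, *COX9* and *COX6* had means between 0.34 and 0.53, with *COX12* at 0.0057 in replicate 1 and 1.03 in replicate 2. The exception was *COX5B*, the form of subunit V that is made when oxygen is low, which had log2 ratios of 0.66, −0.06 and −0.53 and thus a mean near 0 (0.02 ± 0.60).

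The ATP synthase genes were higher in all 3 replicates in 13 of 14 cases. *INH1*, whose protein keeps the enzyme from hydrolyzing ATP, had the highest mean of all 41 genes, with log2 ratios of 0.54, 1.38 and 0.98, averaging 0.97 ± 0.42 (n = 3, SD; limma, adjusted p = 0.168), or 1.95-fold. Its intensity was 13640, 27343 and 30752 in *esl1Δ esl2Δ* cells, against 9360, 10525 and 15640 in wild-type cells. The strains were apart within each replicate, although the lowest mutant value lay below the highest wild-type value. *ATP1*, the α subunit gene, was the lowest, with log2 ratios of 0.02, 0.37 and 0.33, averaging 0.24 ± 0.19. This rank depended on the normalization, as described below. The one gene of mixed sign was *ATP3*, which encodes the γ subunit of the central stalk, at −0.03, 0.36 and 0.46.

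Within the ATP synthase, subunits were grouped by their place in the enzyme. The catalytic head and central stalk (*ATP1*, *ATP2*, *ATP3*, *ATP15* and *ATP16*) had medians of 0.32, 0.37 and 0.46 in replicates 1, 2 and 3. For the peripheral stalk (*ATP4*, *ATP5*, *ATP7* and *ATP14*) these were 0.13, 0.77 and 0.58. The accessory subunits of the membrane part (*ATP17*, *ATP18*, *ATP20* and *TIM11*) had 0.23 in replicate 1 and 0.41 in replicate 3, and were past 2-fold in replicate 2. The replicates thus ranked these parts differently, with the head highest in replicate 1, the membrane part in replicate 2 and the peripheral stalk in replicate 3. *ATP17* was the widest of the membrane part, at 0.23, 1.36 and 0.39, whereas *ATP2*, the β subunit gene, was lowest in replicate 2 (0.34, 0.21 and 0.51). Among the other subunits, *ATP5*, the gene of the subunit that confers oligomycin sensitivity, had a mean of 0.65 ± 0.38.

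The dehydrogenases that feed NADH into the chain differed in direction. *NDI1*, which faces the matrix, was higher in all 3 replicates, with log2 ratios of 0.20, 0.52 and 0.60, averaging 0.44 ± 0.21 (n = 3, SD; limma, adjusted p = 0.268). *NDE1*, the main enzyme on the outer face, had −0.11, 0.20 and 0.41. *NDE2*, its less abundant counterpart, had 0.07, −0.36 and 0.03 and was the only one of the 41 genes with a mean below 0 (−0.09 ± 0.24). Its probe was also the dimmest of the list, with intensities of 266, 261 and 457 in *esl1Δ esl2Δ* cells and 254, 334 and 448 in wild-type cells.

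**Figure D2:**
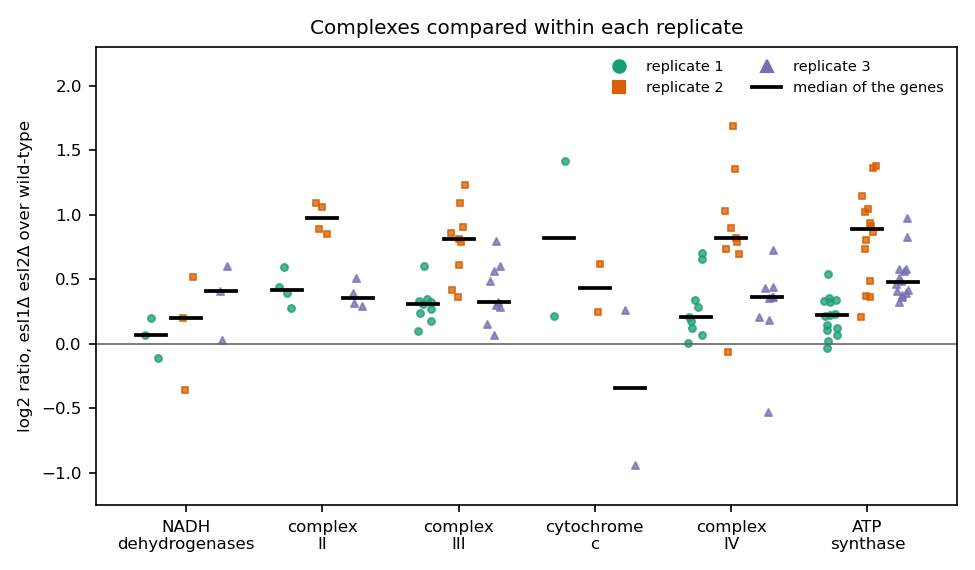
Log2 ratio of *esl1Δ esl2Δ* over wild-type (vertical axis) of each gene, by complex and replicate, with the median of the genes as a black line. The medians of complexes II, III and IV and of the ATP synthase lie close together within a replicate and are highest in replicate 2, at 0.81 to 0.97.

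Compared within replicates, the 4 multi-subunit complexes were close to each other. In replicate 1 the medians were 0.41 for complex II, 0.31 for complex III, 0.21 for complex IV and 0.22 for the ATP synthase. In replicate 2 they were 0.97, 0.81, 0.82 and 0.89 in the same order, and in replicate 3 they were 0.35, 0.32, 0.36 and 0.48. Complex II was first in replicates 1 and 2 and ranked 3 in replicate 3, where the ATP synthase was first, so that no order held in all 3. The gap between replicates 1 and 2 was larger than any gap between complexes of the same replicate. The SD of the replicate medians was 0.29 for complex III and 0.34 for complexes II and V, with 0.32 for complex IV. Without the dehydrogenases, both cytochrome *c* genes and both subunit V genes, 34 genes remained, of which 33 were higher in all 3 replicates. Of all genes, 18.7% were. The genes left out include *NDE1*, *NDE2*, *CYC7* and *COX5B*, which had replicates on either side of 0. This count therefore follows from the choice of genes and is not separate evidence.

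Several of these proteins come in isoforms that are used under different oxygen levels, and the low-oxygen isoforms *CYC7* and *COX5B* had replicates on either side of 0. *CYC1* encodes the main, aerobic cytochrome *c*, and *CYC7* the form of low oxygen. The *CYC1* ratio was nearly the same in every replicate, at 0.22, 0.25 and 0.26, averaging 0.24 ± 0.02 (n = 3, SD; limma, adjusted p = 0.384). That of *CYC7* was 1.42, 0.62 and −0.94, the widest of the 41 genes, so that its SD (1.20) exceeded its mean (0.36). The intensity of *CYC7* was 3700, 2645 and 2405 in *esl1Δ esl2Δ* cells and 1387, 1721 and 4626 in wild-type cells. The wild-type cultures thus covered a wider range than the mutant ones, and the value of wild-type replicate 3 was above all the others.

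**Figure D3:**
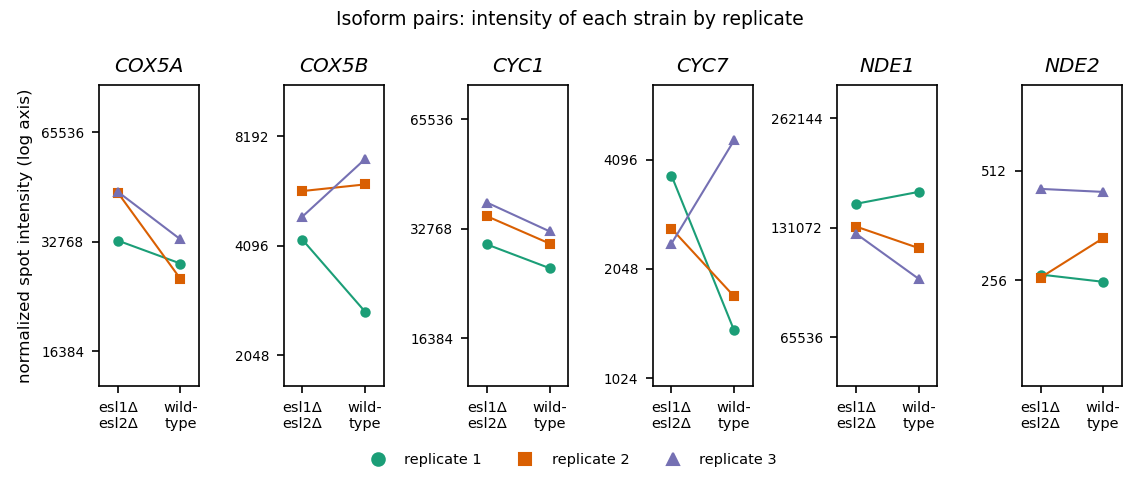
Normalized spot intensity (logarithmic axis, each gene on its own range) in *esl1Δ esl2Δ* cells on the left and wild-type cells on the right, with a line for each replicate. *CYC1* is a little higher in the mutant in all 3 replicates, whereas *CYC7* and *COX5B* are higher in the mutant in some replicates and lower in others.

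*COX5A*, the aerobic form of subunit V, had log2 ratios of 0.21, 0.79 and 0.43, averaging 0.48 ± 0.29 (n = 3, SD; limma, adjusted p = 0.284). The *COX5A* ratio was below that of *COX5B* in replicate 1, by 0.45, and above it by 0.85 and 0.96 in replicates 2 and 3. On average the difference of *COX5A* minus *COX5B* was 0.45 ± 0.78 on the log2 scale (exact sign permutation test, two-sided, p = 0.5, n = 3). For *CYC1* minus *CYC7* it was −0.12 ± 1.22, with −1.20, −0.37 and 1.21 in replicates 1, 2 and 3 (exact test, p = 1), and for *NDE1* minus *NDE2* it was 0.26 ± 0.38 (exact test, p = 0.5). After Benjamini-Hochberg adjustment over these 3 pairs the exact p-values were 0.75, 1 and 0.75. With 3 replicates this exact test cannot give a p under 0.25. When a replicate was left out, *COX5A* minus *COX5B* ranged from 0.20 to 0.90 and *NDE1* minus *NDE2* from 0.10 to 0.47. Both low-oxygen genes were highest in replicate 1 and lowest in replicate 3. Oxygen in the cultures was not measured.

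The intensities of the strains overlapped for most genes, and the intensities of both strains differed between replicates. The lowest of the 3 mutant intensities was above the highest of the 3 wild-type intensities for 8 of the 41 genes, against 4.11% of all genes. These were *QCR7*, *RIP1*, *COX4*, *COX9*, *ATP5*, *ATP7*, *ATP20* and *TIM11*. *COX4* for instance had 42726, 64812 and 42052 in *esl1Δ esl2Δ* cells and 37900, 25373 and 25370 in wild-type cells. For *TIM11*, which helps ATP synthases to form dimers, the values were 4853, 6058 and 5365 in *esl1Δ esl2Δ* cells and 3848, 2734 and 4021 in wild-type cells.

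The dye swap allowed the label to be exchanged for 1 of the replicates. On the array of replicate 3, 38 of the 41 genes had a ratio above 0, and on the dye swap, where the mutant RNA was in Cy3, 38 had too. The medians were 0.40 and 0.41, where those of all genes were 0.0054 and −0.0043, and 39 genes had the same sign on both arrays. Single genes differed more: the size of the difference between both arrays had a median of 0.15, which was also that of all genes (0.15), and reached 0.66 for *COX7*, which had log2 ratios of 0.69 and 0.03. *COX6* (−0.11 on the array and 0.53 on the dye swap) and *NDE2* (0.08 and −0.02) changed sign between both arrays. *CYC7* was low on both, at −0.90 and −0.98, as was *COX5B*, at −0.66 and −0.39. The highest genes of the other complexes had 0.29 and 0.92 (*NDI1*), 0.40 and 0.18 (*SDH4*), 0.80 and 0.40 (*QCR9*) and 1.07 and 0.88 (*INH1*), again with the dye swap given last. The lowest had 0.28 and 0.51 (*SDH2*), 0.33 and 0.31 (*CYT1*), 0.12 and 0.40 (*CYC1*) and 0.20 and 0.45 (*ATP1*). The other isoform genes differed little, with 0.40 and 0.47 for *COX5A* and 0.39 and 0.43 for *NDE1*. Of the genes named here, *COX6*, *NDE2*, *CYC7* and *COX5B* were thus not above 0 in both orientations. Replicates 1 and 2 were hybridized in 1 orientation only, so that a dye effect on a gene stays in their values. Across the 41 genes, which share each array and its normalization, the ratios of replicates 1 and 3 were negatively correlated (r = −0.539). Between replicates 1 and 2, r was 0.237, and between replicates 2 and 3 it was 0.385. *CYC7* (1.42 in replicate 1 and −0.94 in replicate 3) and *COX5B* (0.66 and −0.53) weigh on the negative value. They were among the highest genes in replicate 1 and the only ones below 0 in replicate 3. The correlation without them was not calculated.

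**Figure D4:**
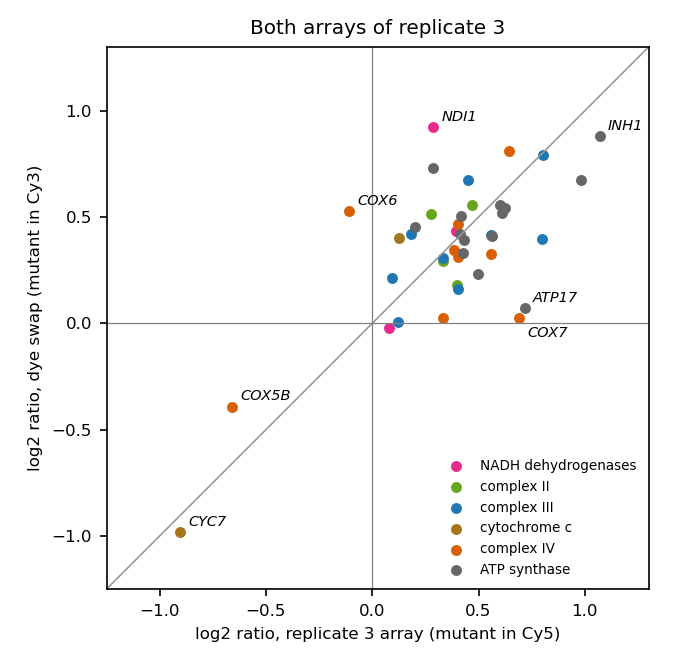
Log2 ratio of *esl1Δ esl2Δ* over wild-type of the 41 genes on the replicate 3 array (horizontal axis) and on its dye swap (vertical axis), colored by complex, with the line of equality. Most genes are above 0 on both, and *CYC7* and *COX5B* are below 0 on both.

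Other genes on which the chain depends were described as lists written from general knowledge. Of 38 factors that assemble the complexes or translate their mitochondrial subunits, 25 were higher in all 3 replicates and 0 lower, with a median of the mean log2 ratios of 0.33. Highest was *COX17*, a copper chaperone of complex IV, at 0.82, 1.44 and 0.28, and lowest *COX19* at −0.24, −0.53 and 0.25. In contrast to the subunits, this list was highest in replicate 1, with medians of 0.48, 0.42 and 0.22. The 9 genes of coenzyme Q synthesis had medians of 0.44, 0.29 and −0.20, with 3 genes higher throughout, and with *COQ9* at 0.64, 0.41 and 0.06 and *COQ8* at 0.03, 0.08 and −0.23 as the extremes. Among 13 carriers and accessory proteins, 6 were higher in all replicates. *STF2*, once described as a factor that stabilizes the inhibited ATP synthase, was the highest at 0.63, 1.00 and 1.11 (limma, adjusted p = 0.137), and *RCF2* the lowest with a mean of −0.01. In these lists, 0 genes had an adjusted p below 0.05, and an unadjusted p below 0.05 was found for 20 of the assembly factors, 2 of the coenzyme Q genes and 5 of the carriers, all higher in the mutant. Among all genes, 7.9% were higher at that level and 18.7% were higher in all 3 replicates.

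The regulators were less uniform. *HAP4*, the activating subunit of the Hap complex and the one that glucose represses, was higher in all 3 replicates, with log2 ratios of 0.32, 0.30 and 0.97, averaging 0.53 ± 0.38 (n = 3, SD; limma, adjusted p = 0.299). Of its partners, *HAP3* had a mean of 0.18 ± 0.06, *HAP5* of 0.10 ± 0.24 and *HAP2* of 0.04 ± 0.17. *HAP1*, the heme-dependent activator, was at −0.35, −0.29 and 0.14. *ROX1*, the repressor of low-oxygen genes, was the lowest at −0.17, −0.67 and 0.03, and the repressor *MOT3* had a mean of −0.17 ± 0.24. *HAP4* was highest in replicate 3, whereas the median of the 41 genes was highest in replicate 2.

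The 41 genes were set beside the TCA cycle and the mitochondrial and cytosolic ribosomes. These groups were added after the results had been seen and are given as values only. The 11 enzymes of the TCA cycle had medians of 0.25, 0.33 and 0.30 in replicates 1, 2 and 3, with 8 on the higher side in all 3. The 67 mitochondrial ribosomal proteins had 0.53, 0.61 and 0.37, with 64 on the higher side in all 3. The 132 cytosolic ribosomal proteins had 0.0036, 0.12 and 0.69, with 49 on the higher side in all 3. Of all genes, 18.7% were higher in all 3 replicates. In replicate 1, the median of the mitochondrial ribosome was above that of the chain, and in replicate 2 it was below it. The difference between these groups was not tested.

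**Figure D5:**
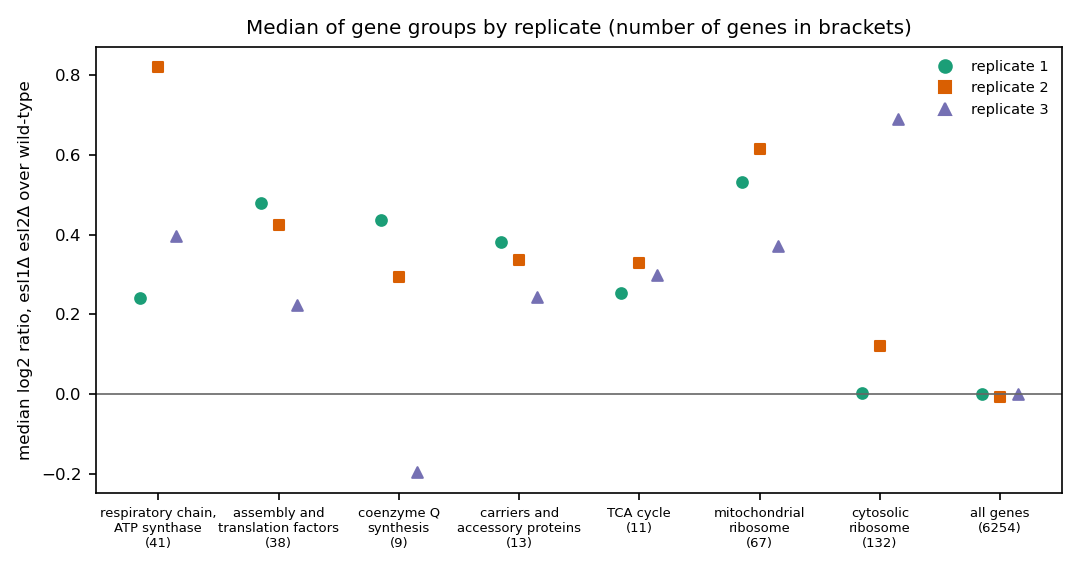
Median log2 ratio of *esl1Δ esl2Δ* over wild-type (vertical axis) of 8 groups of genes in replicates 1, 2 and 3, with the number of genes in brackets. Chain and ATP synthase reach 0.82 in replicate 2, and the mitochondrial groups other than coenzyme Q synthesis are above 0 in every replicate. The cytosolic ribosome is near 0 in replicate 1 and at 0.69 in replicate 3, and the median of all genes is near 0.

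Most of the 41 transcripts are abundant. The median rank of their mean intensity was at the 87.7th percentile of all probes, so that the normalization of bright spots bears on them, and its part in the result was not tested beyond the alternatives that follow. With median centring in place of loess, the median of the 41 genes was 0.55, and with the log ratio of the scanner software 0.49. Within the list, the ratio was weakly related to intensity (Spearman's rho of −0.25 in replicates 1 and 2 and 0.04 in replicate 3, across 41 genes of the same arrays).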

How the data were processed

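From 500 ng of total RNA of each strain the authors made labeled cRNA, hybridized it to 4 arrays of 1 slide, and deposited spot intensities from Agilent's Feature Extraction 10.1.1.1, not normalized. Also deposited is a log10 ratio (red over green) from that software, which the series table repeats spot by spot without turning the dye swap, and 0 or 1 marks of other kinds for each spot.

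Here, median intensities were background-corrected by normexp (offset 50), normalized by loess within arrays in R 4.3.3 with limma 3.58.1, and averaged over the spots of a probe (2 to 12 for these 41 genes), without control and outlier spots. The dye swap was turned so that every ratio has the mutant on top, and was averaged with the other array of replicate 3. The log2 ratios of 6254 genes were tested against 0 with lmFit and eBayes (two-sided, 5.28 total degrees of freedom). Intensities per strain were taken after Aquantile between arrays. The fit was also run on simulated data in which each gene varied independently of the others. That run does not bear on counts over genes that share their arrays. Names came from RefSeq (assembly R64), which named 5756 of 6256 probes. The array design uses an older build, so no coordinates are given.

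The genes and lists were chosen with earlier results of these data known. Full values are given for the highest and lowest gene of each complex and for the isoform pairs, and for other lists for the highest and lowest gene. Further genes named with values were chosen after their values were seen. Promoter motifs that had been planned were not analysed here.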

Additional observations from a re-analysis of the deposited data

How the results depend on the processing

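Of the 14 alternatives, none changed the sign of the median of the 41 genes, which lay between 0.32 (without replicate 2) and 0.61 (without replicate 1). Some of them could not have changed it. Keeping only probes well above background left all 41 genes in, and separate channels gave the same means, so both returned 0.47. The series table repeats the log ratio of the scanner software, and both gave 0.49. The count of genes with an adjusted p below 0.05 by limma was 0 under every alternative except that without replicate 3, so that it ranged over 0 to 6 when a replicate was left out. With separate channels and no replicate block, in place of the ratios that pair the strains on each array, it was 0, and the lowest adjusted p among the 41 genes was 0.999. The count of genes past 2-fold was 1 with median centring (*INH1*), 1 without the dye swap (*COX7*) and 0 to 3 when a replicate was left out (*COX4*, *COX7* and *INH1* without replicate 1; *COX7* and *CYC7* without replicate 3). The count of genes lower in all replicates ranged from 0 to 1 in that case (*COX5B* without replicate 1). The median of the NADH dehydrogenases was 0.47 with median centring, against 0.17 with loess. *ATP1*, the lowest ATP synthase gene with loess at 0.24, was at 0.53 with median centring, where *ATP3* was the lowest at 0.36. The difference of *CYC1* minus *CYC7* turned to 0.60 with all 4 arrays and a dye term, and ranged from −0.78 to 0.42 when a replicate was left out. *NDE1* minus *NDE2* was 0.69 with median centring, against 0.26 with loess. For each of these the cause was not tested. The small number of replicates limits all values. *NDE2*, the dimmest of the 41 probes, had a mean of −0.09, against −0.07 with no background correction and −0.15 with a normexp offset of 0.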

Other observations

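The partner subunits that are encoded in mitochondrial DNA were measured by probes of their own. Of the 7 genes, *ATP6* is left out of the count, and 2 of the other 6 had ratios of mutant over wild-type above 0 throughout. Among all genes, 18.7% were higher in all 3 replicates. The 2 genes were *COX1*, with log2 ratios of 0.69, 0.46 and 0.88 in replicates 1, 2 and 3 (limma, adjusted p = 0.168), and *COX2*, with 0.06, 0.88 and 0.15. *COB*, which encodes cytochrome *b*, had 0.04, 1.02 and −0.03, and *COX3* had −0.02, 0.47 and 0.60. *OLI1* had −0.40, 1.26 and 0.27, and *ATP8* had −0.01, 0.70 and 0.36. The probe of *ATP6* was not well above background on any array in either strain and is given no ratio. Without *ATP6*, the medians of the other 6 genes were 0.01, 0.79 and 0.31 in replicates 1, 2 and 3. Mitochondrial messages of this yeast carry no poly(A) tail, and how well the labeling kit captured them was not tested.

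Genes of the retrograde response, which answers to failing mitochondria, did not share the direction of the chain in every replicate. *CIT2*, its usual reporter, had log2 ratios of −0.59, −0.16 and 1.72, and *PDH1* had −0.76, −0.79 and 0.67. *ATO3* was the lowest at −1.18, −1.36 and 0.10 (limma, adjusted p = 0.347), while *DLD3* had a mean of −0.34 ± 0.33 (SD, n = 3). The regulators *RTG1* and *RTG3* were lower in all 3 replicates, with means of −0.30 ± 0.14 and −0.25 ± 0.17. Replicate 3 thus stood apart from replicates 1 and 2 for the target genes. It did so for the 132 cytosolic ribosomal protein genes too, whose median log2 ratio was 0.0036, 0.12 and 0.69 in replicates 1, 2 and 3. All 132 were above 0 in replicate 3, against 68 in replicate 1 and 79 in replicate 2. Of all 6254 genes, 3141, 3070 and 3134 were above 0 in replicates 1, 2 and 3.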
